A study of Mus musculus with 16 samples.

Results

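The genes described here are those of insulin, PI3K-AKT and mTOR signalling, a named set of 39. Each gene was represented by the brightest Affymetrix probe set that the platform annotation assigns to it alone, brightness being the mean over all 16 arrays. A single-symbol probe set was found for 38 of the 39 genes, among 18193 genes so represented on the array, and Rps6kb1 had none in the annotation used. All 38 passed the filter on low values, a log2 value over 4 on at least 4 arrays. Expression was measured in hippocampus of 16 male mice aged 12 months, 1 mouse per array and 4 mice per group. In the first group SAMP8 mice, a senescence-accelerated line with memory deficits at that age, had received AβPP-Antisense, an oligonucleotide directed at the amyloid β precursor protein, by the intravenous route. In the second group SAMP8 mice had received Random-Antisense by the same route. The third group was untreated SAMP8, and the fourth, Control, was untreated mice from a 50% backcross of SAMP8 with CD-1 mice, a line without memory deficits. Control mice therefore carried part of the SAMP8 genome and were not an unrelated strain. Random antisense 1 had a treatment entry of none but was placed with the random oligonucleotide by its title, source and description. The dose, schedule and sequence of the oligonucleotides are not given in the sources used here.

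Insulin and the insulin-like growth factors bind receptor tyrosine kinases, whose adaptors IRS1 and IRS2 recruit PI3K to the membrane. The lipid that PI3K makes brings PDK1 and AKT together, and AKT then keeps FOXO transcription factors out of the nucleus and restrains the TSC complex, which lets RHEB switch on mTOR. mTOR acts on S6 kinases and on the proteins that hold back the cap-binding factor eIF4E, while AMPK, its activator LKB1 and DDIT4 oppose it. In hippocampus the pathway is known for its part in neuronal survival, adult neurogenesis, protein synthesis at synapses and memory. Much of this signalling runs through phosphorylation, which an mRNA array does not measure.

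Values are log2 expression values, and 1 log2 unit is a doubling. Of the markers of hippocampal neurons, 3 for dentate granule cells had a mean of 5.04 to 7.38 after AβPP antisense and 6.47 to 6.98 after Random antisense. Their mean was 6.94 to 7.42 in untreated SAMP8 and 6.57 to 7.75 in Control. AβPP antisense 2 was lowest, at 5.04, and AβPP antisense 4 next, at 5.42. The mean of 5 pyramidal cell markers was also lowest on these arrays, at 7.74 and 8.33. Of those 5 markers, Spink8 was at 2.78 on AβPP antisense 2, under the filter level of 4. App, the gene the antisense is directed at, averaged 14.16 ± 0.19 after AβPP antisense and 14.38 ± 0.04 after Random antisense (SD, n = 4 each) on its brightest probe set, with no overlap of arrays and an adjusted p of 0.503 in limma. A second tested probe set of App averaged 12.51 ± 1.30 and 13.55 ± 0.08 in the same groups (SD, n = 4 each), again with all AβPP antisense arrays lower, a difference of -1.05 (SE 0.43, 95% interval -1.97 to -0.12, adjusted p = 0.359 in limma) that included 10.59 on AβPP antisense 4. Of all arrays, AβPP antisense 4 and Control 4 correlated least with the rest, at a median r of 0.9045 and 0.9222. On AβPP antisense 4 the difference between the 3′ and 5′ beta-actin control probe sets was 3.89, against 0.84 to 1.60 on the other 15 arrays. On Control 4 the mean of 6 leukocyte markers was 12.14, against 6.15 to 7.46 on the others. Many of the results that rest on either array are given with and without it.

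No gene of the pathway passed the test in any of the 4 comparisons. With limma's moderated test and Benjamini-Hochberg adjustment over 23905 probe sets, 0 of 38 genes had an adjusted p under 0.05 in AβPP antisense minus Random antisense, where 0.0837% of all tested probe sets did. The count was 0 of 38 in AβPP antisense minus untreated SAMP8 (background 0.289%), 0 of 38 in Random antisense minus untreated SAMP8 (background 0%), and 0 of 38 in SAMP8 minus Control (background 0.36%). An F test over the 4 groups called 0 of 38, beside 0.849% of all probe sets. At an unadjusted p under 0.05 the fits held 1, 2, 1 and 1 genes in the order of these comparisons, and 2 in the F test. Those are 2.63%, 5.26%, 2.63% and 2.63% of the genes, beside 12.3%, 14.7%, 1.12% and 4.38% of all tested probe sets. Without AβPP antisense 4 and Control 4 the counts of called genes were again 0 in all 5 tests, beside 0.838%, 1.71%, 0%, 0.455% and 1.98% of all probe sets. In whole tissue a smaller number of cells of a type and less RNA per cell cannot be told apart.

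The medians of the 38 differences lay near 0. They were -0.03 for AβPP antisense minus Random antisense, 0.01 for AβPP antisense minus untreated SAMP8, 0.04 for Random antisense minus untreated SAMP8 and 0.03 for SAMP8 minus Control, beside 0.01, 0.00, -0.01 and 0.04 over all tested probe sets. Positive differences numbered 16, 20, 21 and 21 of 38 in the same order. The 95% interval of the difference stayed within 1 log2 unit of 0 for 33, 35, 35 and 36 of the 38 genes, which leaves room for smaller changes. The median SE was 0.20 with 4 arrays per group, and it ranged from 0.10 to 0.65 over the genes.

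**Figure D1:**
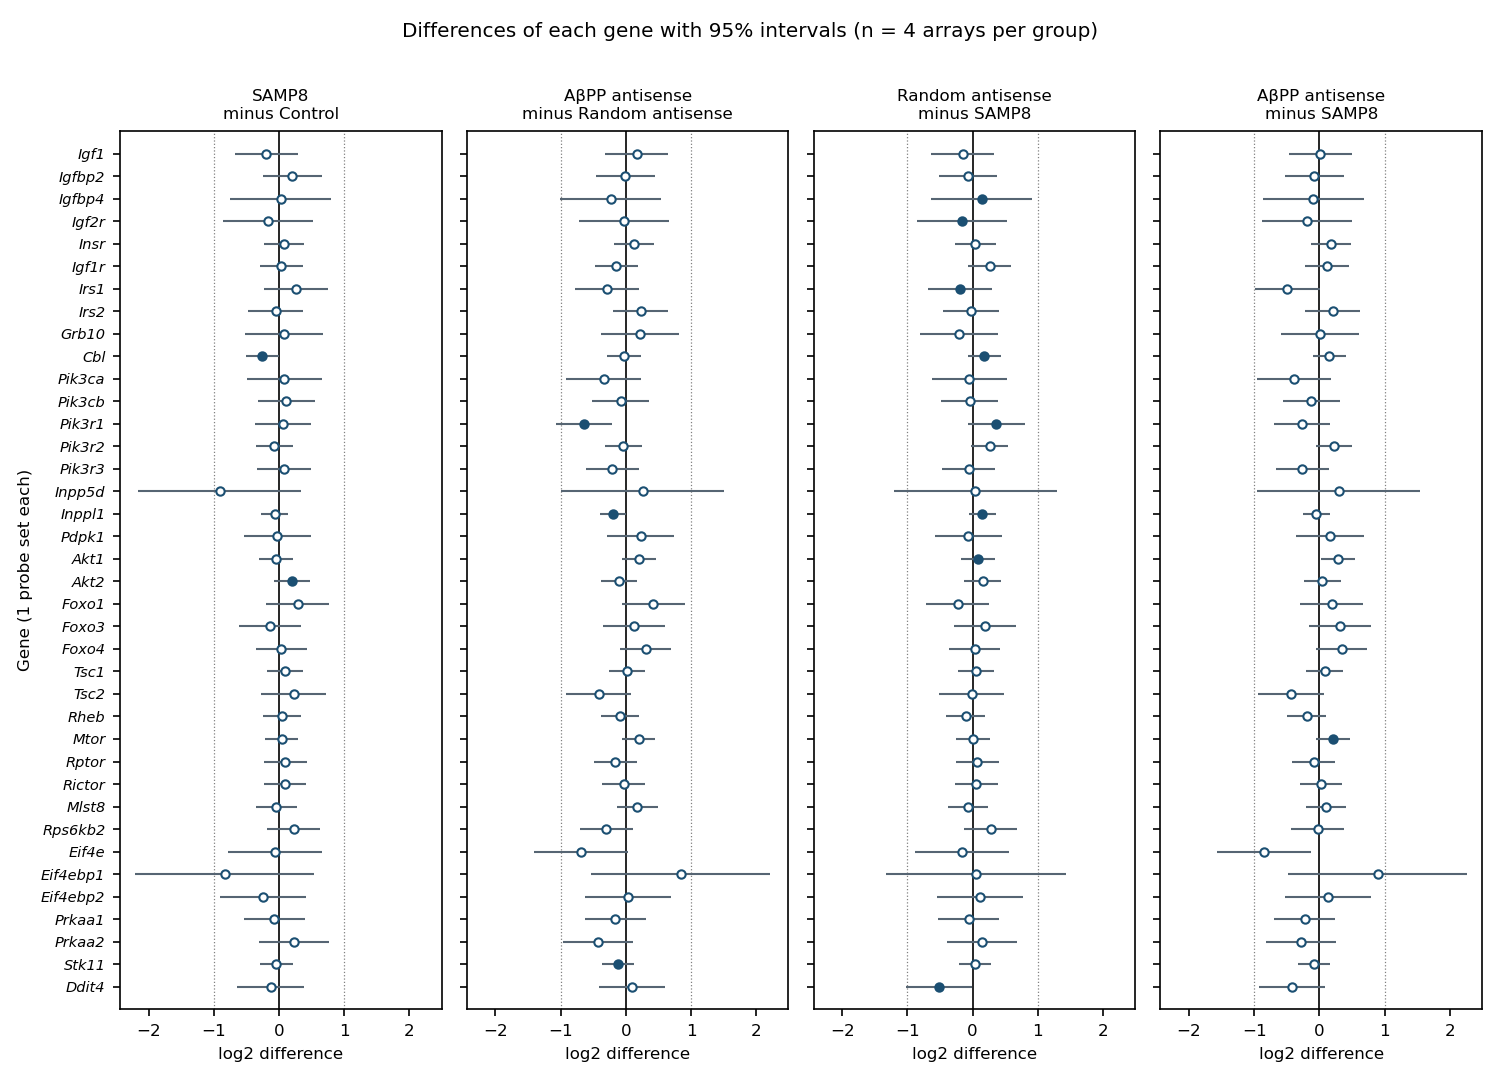
Log2 difference of each of the 38 genes in the 4 comparisons (circles) with its 95% interval (lines), genes by role from ligands at the top to AMPK and stress inputs at the bottom. Filled circles mark genes whose 4 arrays in one group all lay on one side of the 4 in the other, and dotted lines mark -1 and 1. Intervals are widest for Inpp5d and Eif4ebp1, and 0 genes passed the adjusted threshold.

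The spread between mice was widest after AβPP antisense and next widest in Control. The median SD of the 38 genes was 0.424 after AβPP antisense, 0.0927 after Random antisense, 0.0967 in untreated SAMP8 and 0.227 in Control, beside 0.386, 0.117, 0.126 and 0.293 over all tested probe sets. After AβPP antisense 19 of the 38 genes spanned more than 1 log2 unit across the 4 mice, against 0 after Random antisense, 0 in untreated SAMP8 and 7 in Control. Single arrays carried much of that spread. AβPP antisense 4 held the lowest or highest value of the 16 for a gene in 23 of 76 cases and Control 4 in 16 of 76. On AβPP antisense 4, 19 of 38 genes lay more than 0.5 from their median over the 16 arrays, on Control 4 it was 11, and on the other arrays 0 to 6.

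**Figure D2:**
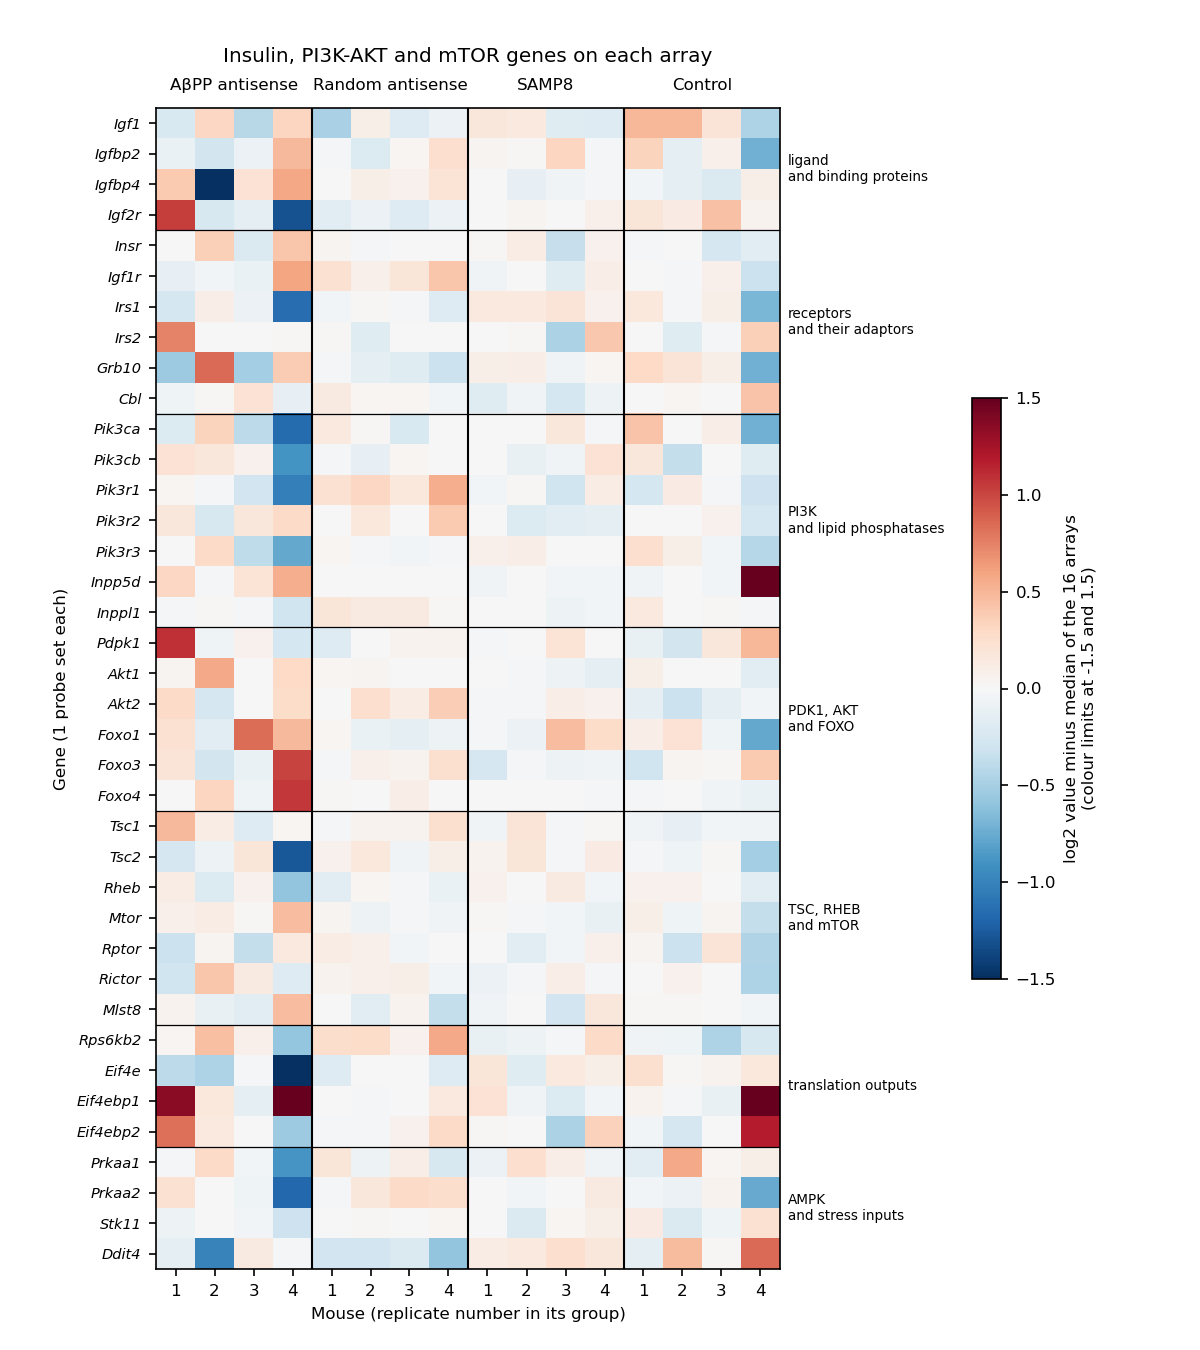
Each row is a gene, grouped by role, and each column a mouse; colour gives the log2 value minus the gene's median over the 16 arrays, blue below and red above, with limits at -1.5 and 1.5. AβPP antisense 4 and Control 4 show most of the strong colours, and the Random antisense and untreated SAMP8 columns are pale.

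Among the ligand and its binding proteins, Igf1, which encodes insulin-like growth factor 1, read 7.69, 8.24, 7.52 and 8.25 on the AβPP antisense arrays, 7.44, 8.01, 7.73 and 7.84 on the Random antisense arrays, 8.09, 8.08, 7.74 and 7.74 on the untreated SAMP8 arrays and 8.42, 8.43, 8.12 and 7.46 on the Control arrays. The groups overlapped in every comparison, and Random antisense 1 and Control 4 were the lowest arrays. AβPP antisense minus Random antisense was 0.17 (SE 0.23, 95% interval -0.32 to 0.65, adjusted p = 0.809) by limma. SAMP8 minus Control was -0.20 (SE 0.23, 95% interval -0.68 to 0.29, adjusted p = 0.999), and -0.41 (adjusted p = 0.814) without the 2 arrays that stood apart. The 3 tested probe sets of Igf1 ran from -0.39 to 0.17 in AβPP antisense minus Random antisense, so their signs differed. In SAMP8 minus Control all 3 were negative, at -0.29 to -0.20. Igfbp2 and Igfbp4, which encode secreted proteins that bind the growth factors, and Igf2r, the clearance receptor for IGF2, differed by -0.23 to -0.01 in AβPP antisense minus Random antisense and by -0.17 to 0.20 in SAMP8 minus Control. Igfbp4 was at 8.17 on AβPP antisense 2, against 9.72 to 10.52 on the other 15 arrays. Igf2r was at 8.38 on AβPP antisense 1 and 6.03 on AβPP antisense 4, against 7.10 to 7.78 elsewhere.

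Receptors and adaptors came next. Igf1r, the receptor for IGF1, read 10.22, 10.30, 10.24 and 10.94 on the AβPP antisense arrays, 10.57, 10.42, 10.52 and 10.76 on the Random antisense arrays, 10.29, 10.34, 10.16 and 10.45 on the untreated SAMP8 arrays and 10.34, 10.32, 10.42 and 10.02 on the Control arrays. AβPP antisense 4 was the highest array, while the other 3 values of that group were under the lowest Random antisense value. The difference from Random antisense was -0.15 (SE 0.16, 95% interval -0.48 to 0.19, adjusted p = 0.75) by limma, and -0.32 (adjusted p = 0.333) without AβPP antisense 4. Random antisense minus untreated SAMP8 was 0.26 (SE 0.16, 95% interval -0.08 to 0.59, adjusted p = 1), with 1 untreated array inside the Random antisense range.

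Insr, the insulin receptor, read 8.26, 8.62, 8.05 and 8.67 on the AβPP antisense arrays, 8.31, 8.25, 8.27 and 8.25 on the Random antisense arrays, 8.28, 8.38, 7.92 and 8.33 on the untreated SAMP8 arrays and 8.24, 8.27, 8.02 and 8.09 on the Control arrays. The Random antisense arrays lay close together, SAMP8 3 was lowest, and all groups overlapped. Insr had a difference of 0.13 (SE 0.14, 95% interval -0.18 to 0.44, adjusted p = 0.755) in AβPP antisense minus Random antisense and of 0.07 (SE 0.14, 95% interval -0.23 to 0.38, adjusted p = 0.999) in SAMP8 minus Control, both by limma.

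Irs1, the adaptor that links both receptors to PI3K, read 9.05, 9.41, 9.23 and 8.18 on the AβPP antisense arrays, 9.27, 9.33, 9.30 and 9.12 on the Random antisense arrays, 9.46, 9.47, 9.51 and 9.39 on the untreated SAMP8 arrays and 9.47, 9.29, 9.40 and 8.63 on the Control arrays. AβPP antisense 4 and Control 4 were its lowest arrays, and no Random antisense value reached the lowest untreated SAMP8 value. For Irs1, AβPP antisense minus untreated SAMP8 was -0.49 (SE 0.23, 95% interval -0.98 to 0.00, adjusted p = 0.342) by limma, and -0.23 (adjusted p = 0.689) without AβPP antisense 4. Random antisense minus untreated SAMP8 was -0.20 (SE 0.23, 95% interval -0.69 to 0.29, adjusted p = 1). Irs2, the related adaptor, read 6.04, 5.29, 5.29 and 5.31 on the AβPP antisense arrays, 5.31, 5.12, 5.30 and 5.30 on the Random antisense arrays, 5.29, 5.31, 4.82 and 5.69 on the untreated SAMP8 arrays and 5.29, 5.11, 5.27 and 5.65 on the Control arrays. AβPP antisense 1 was the highest array and SAMP8 3 the lowest, and no pair of groups separated in the 4 comparisons. Its largest difference was 0.23 (SE 0.20, 95% interval -0.20 to 0.65, adjusted p = 0.682), in AβPP antisense minus Random antisense.

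Cbl, a ubiquitin ligase that acts on activated receptors, read 9.54, 9.63, 9.83 and 9.49 on the AβPP antisense arrays, 9.74, 9.64, 9.64 and 9.56 on the Random antisense arrays, 9.43, 9.56, 9.35 and 9.53 on the untreated SAMP8 arrays and 9.61, 9.63, 9.61 and 10.04 on the Control arrays. Every untreated SAMP8 array lay below every Control array. They also lay below every Random antisense array, narrowly, at 9.560 at most against 9.564 at least. SAMP8 minus Control was -0.26 (SE 0.12, 95% interval -0.51 to -0.00, adjusted p = 0.999) by limma, and -0.15 (adjusted p = 1) without Control 4. Control 4 also held the highest leukocyte marker mean, given above, and the part of those cells in the Cbl difference was not tested. A second tested probe set of Cbl gave -0.54 in SAMP8 minus Control, with Control 4 and AβPP antisense 1 far above the rest. On its brightest probe set Grb10, an adaptor that restrains both receptors, differed by 0.21, 0.00, -0.21 and 0.08 in AβPP antisense minus Random antisense, AβPP antisense minus untreated SAMP8, Random antisense minus untreated SAMP8 and SAMP8 minus Control, with the smallest adjusted p at 0.802. A dim second probe set of Grb10, 1425457_a_at, differed by -0.47, -1.02, -0.55 and -0.09 in the same order. Against untreated SAMP8 its AβPP antisense difference had a 95% interval of -1.68 to -0.37 (SE 0.31, adjusted p = 0.166 in limma), with AβPP antisense values of 2.96 to 3.56, under the filter level of 4, and untreated SAMP8 values of 3.56 to 4.98, which overlapped narrowly.

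Pik3r1 had the smallest p of the pathway genes over the 4 comparisons. It encodes p85α, the regulatory subunit that holds the PI3K catalytic subunit in check and docks it on IRS proteins, and it gives shorter subunits from an internal start. The 250 bases before its 2 annotated starts, 75587 bases apart on the minus strand of chromosome 13 (GRCm38.p6, RefSeq), are shown because these starts make different transcripts of the gene. The window before the upstream start is chr13:101768218-101768467 and that before the internal start is chr13:101692631-101692880.
Pik3r1 upstream start: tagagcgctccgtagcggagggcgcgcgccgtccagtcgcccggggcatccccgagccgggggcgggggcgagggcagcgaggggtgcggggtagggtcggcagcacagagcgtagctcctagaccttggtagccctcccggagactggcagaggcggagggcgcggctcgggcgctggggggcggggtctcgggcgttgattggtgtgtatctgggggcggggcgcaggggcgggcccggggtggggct
Pik3r1 internal start: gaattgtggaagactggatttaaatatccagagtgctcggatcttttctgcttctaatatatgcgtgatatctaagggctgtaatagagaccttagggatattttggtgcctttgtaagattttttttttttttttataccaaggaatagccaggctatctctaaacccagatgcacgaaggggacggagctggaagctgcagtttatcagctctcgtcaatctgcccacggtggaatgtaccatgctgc
The first window is 76.4% G and C with 30 CpG dinucleotides and the second 42.4% with 6, beside medians of 52.4% and 6 over the windows of all genes. Neither holds the FOXO core motif TGTTTAC on either strand, so no letters are capitalised.

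Pik3r1 read 10.87, 10.81, 10.54 and 9.80 on the AβPP antisense arrays, 11.06, 11.14, 10.99 and 11.38 on the Random antisense arrays, 10.79, 10.84, 10.53 and 10.95 on the untreated SAMP8 arrays and 10.57, 10.95, 10.82 and 10.53 on the Control arrays on its brightest probe set. Every AβPP antisense value was under the lowest Random antisense value, AβPP antisense 4 was lowest, and every Random antisense value was above the highest untreated SAMP8 value. The difference between AβPP antisense and Random antisense was -0.64 (SE 0.20, 95% interval -1.07 to -0.21, adjusted p = 0.244) by limma, with an exact permutation p of 0.0286, the smallest possible with 4 against 4. Random antisense minus untreated SAMP8 was 0.37 (SE 0.20, 95% interval -0.07 to 0.80, adjusted p = 1), and AβPP antisense minus untreated SAMP8 was -0.27 (SE 0.20, 95% interval -0.70 to 0.16, adjusted p = 0.554). The AβPP antisense arrays thus overlapped those of untreated SAMP8, and Random antisense stood above both. Without AβPP antisense 4 the difference from Random antisense was -0.40 (adjusted p = 0.317), and with the beta-actin 3′ minus 5′ value as a covariate it was -0.38 (adjusted p = 0.497), with that value highest on AβPP antisense 4.

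The other 3 tested probe sets of Pik3r1 were also negative in AβPP antisense minus Random antisense. Probe set 1451737_at read 7.11, 6.79, 7.75 and 4.41 on the AβPP antisense arrays, 8.25, 8.25, 8.05 and 8.36 on the Random antisense arrays, 8.12, 7.47, 8.27 and 8.28 on the untreated SAMP8 arrays and 8.03, 8.23, 8.04 and 7.72 on the Control arrays, a difference of -1.71 (SE 0.50, 95% interval -2.77 to -0.66, adjusted p = 0.214) by limma. Probe set 1425515_at read 8.03, 8.26, 8.49 and 5.07 on the AβPP antisense arrays, 8.92, 8.87, 8.70 and 8.81 on the Random antisense arrays, 8.89, 8.77, 8.72 and 8.83 on the untreated SAMP8 arrays and 8.93, 8.91, 8.76 and 8.83 on the Control arrays, a difference of -1.36 (SE 0.52, 95% interval -2.48 to -0.25, adjusted p = 0.322). On both, the AβPP antisense values did not overlap those of Random antisense, and AβPP antisense 4 lay more than 2 units below the next array. The probe set 1438682_at differed by -0.37 with overlapping arrays. The brightest probe set, 1451737_at and 1425515_at were designed against 1 transcript record, so they are not independent measures. Without AβPP antisense 4 and Control 4, 1425515_at passed the threshold, at -0.57 (adjusted p = 0.0307) against Random antisense and -0.54 (adjusted p = 0.0279) against untreated SAMP8. Of the 79 tested probe sets of pathway genes it was the only one called in those 2 comparisons then, beside 0.838% and 1.71% of all probe sets. Without AβPP antisense 3, 1451737_at passed, at -2.13 (adjusted p = 0.0257) against Random antisense and -1.94 (adjusted p = 0.0305) against untreated SAMP8. That fit called 895 and 1286 of 23866 probe sets in these comparisons, 3.75% and 5.39%, and 3 and 5 of the 79 of pathway genes, against 20 and 69 probe sets with all arrays. Neither 1425515_at nor 1451737_at was called with all 16 arrays, so these calls depend on which arrays are fitted.

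**Figure D3:**
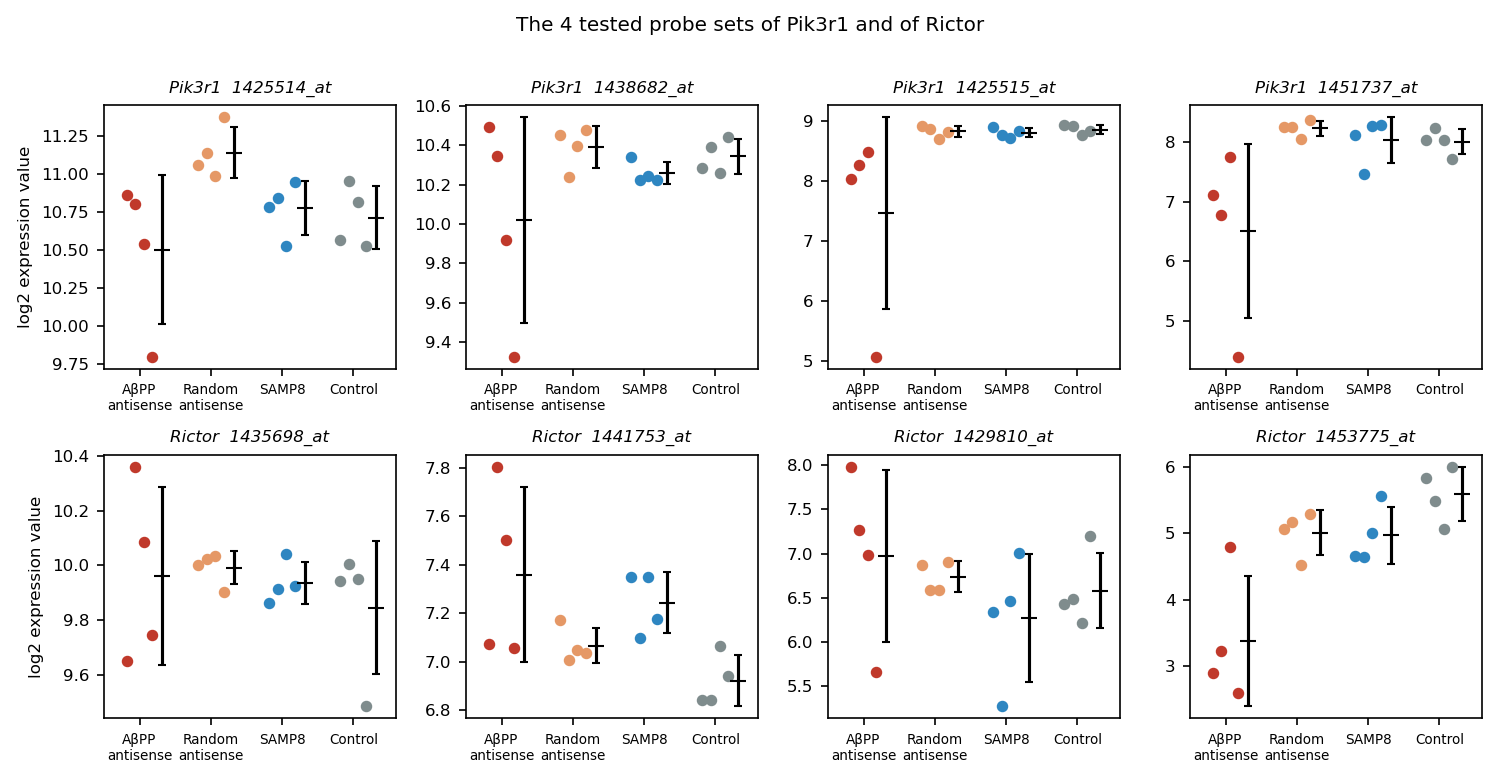
Log2 values of the 4 tested probe sets of Pik3r1 (top) and of Rictor (bottom), 4 mice per group, with mean and SD as black bars. Each panel has its own axis, which does not start at 0. All 4 Pik3r1 probe sets have AβPP antisense 4 as the lowest array, and of the Rictor probe sets 1453775_at has 3 AβPP antisense arrays below every other array.

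Other PI3K subunits and the lipid phosphatases gave smaller differences between AβPP antisense and Random antisense. Pik3r2, which encodes the related subunit p85β, read 8.83, 8.42, 8.82 and 8.94 on the AβPP antisense arrays, 8.64, 8.81, 8.66 and 9.04 on the Random antisense arrays, 8.65, 8.45, 8.50 and 8.51 on the untreated SAMP8 arrays and 8.65, 8.65, 8.72 and 8.39 on the Control arrays. Random antisense minus untreated SAMP8 was 0.26 (SE 0.13, 95% interval -0.02 to 0.54, adjusted p = 1) by limma, and the lowest Random antisense array overlapped the highest untreated one. Inppl1, the phosphatase SHIP2 that removes a phosphate from the PI3K product, read 7.66, 7.69, 7.65 and 7.37 on the AβPP antisense arrays, 7.85, 7.81, 7.80 and 7.70 on the Random antisense arrays, 7.67, 7.67, 7.60 and 7.63 on the untreated SAMP8 arrays and 7.82, 7.67, 7.69 and 7.65 on the Control arrays. As for Pik3r1, the Random antisense arrays all lay above those of AβPP antisense and of untreated SAMP8, and AβPP antisense 4 lay apart as the lowest. Against Random antisense the difference was -0.20 (SE 0.10, 95% interval -0.40 to 0.01, adjusted p = 0.427), and -0.12 (adjusted p = 0.663) without AβPP antisense 4. The catalytic subunits Pik3ca and Pik3cb and the regulatory subunit Pik3r3 differed by -0.34, -0.08 and -0.20 in the same comparison, each with AβPP antisense 4 as the lowest array. Without AβPP antisense 4 and Control 4 these were -0.07, 0.18 and -0.02. The 6 tested probe sets of Pik3ca ran from -0.36 to 0.43 with all arrays. In SAMP8 minus Control the 3 genes differed by 0.08 to 0.11.

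Inpp5d encodes SHIP1, the relative of SHIP2 found mainly in blood and immune cells including microglia. It read 5.26, 4.94, 5.16 and 5.50 on the AβPP antisense arrays, 4.96, 4.96, 4.95 and 4.95 on the Random antisense arrays, 4.90, 4.95, 4.91 and 4.91 on the untreated SAMP8 arrays and 4.90, 4.96, 4.91 and 8.52 on the Control arrays. Control 4 stood 3 units above every other array. The remaining Control arrays and all Random antisense and untreated SAMP8 arrays lay at 4.90 to 4.96, near the filter level of 4. Whether readings this low measure the gene was not tested. SAMP8 minus Control was -0.91 (SE 0.59, 95% interval -2.16 to 0.34, adjusted p = 0.999) by limma, and -0.01 (adjusted p = 1) without Control 4. The 6 leukocyte markers were all at their highest on Control 4, with a mean of 6.67 to 6.80 in untreated SAMP8 and 6.15 to 12.14 in Control, and the microglia markers had a mean of 8.49 to 8.68 in untreated SAMP8 and 8.10 to 9.30 in Control. Rac2, a leukocyte marker, was at 9.16 on Control 4 and under the filter level on the other 15 arrays. The part of such cells in the Inpp5d difference was not tested.

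For the kinases and FOXO factors, Akt1, the most studied AKT isoform, read 10.26, 10.79, 10.21 and 10.51 on the AβPP antisense arrays, 10.25, 10.26, 10.22 and 10.22 on the Random antisense arrays, 10.22, 10.20, 10.14 and 10.07 on the untreated SAMP8 arrays and 10.31, 10.22, 10.21 and 10.06 on the Control arrays. AβPP antisense 2 and 4 were its highest arrays, and the other AβPP antisense arrays lay close to those of Random antisense. The difference from untreated SAMP8 was 0.28 (SE 0.12, 95% interval 0.03 to 0.54, adjusted p = 0.294) by limma, and that from Random antisense was 0.21 (SE 0.12, 95% interval -0.05 to 0.47, adjusted p = 0.514). A second tested probe set, 1425711_a_at, differed by -0.52 and -0.52 in these comparisons, opposite in sign, with AβPP antisense 4 lowest. AβPP antisense 2 also had the lowest means of the dentate and pyramidal cell markers and the highest of the blood markers, and without it Akt1 differed by 0.17 from untreated SAMP8.

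The FOXO core motif was looked for in the promoter windows, 250 bases before to 50 after a start, because FOXO factors act downstream of AKT. The motif TGTTTAC was found on either strand in 2 of 47 windows of 35 of the 39 genes, which is 4.26%, beside 3.65% of the 32851 windows of all genes. It lay at position -161 from one annotated start of Akt1, on the minus strand at chr12:112674885-112675134 (GRCm38.p6, RefSeq), where capitals mark the motif, and after the start of Stk11.
Akt1: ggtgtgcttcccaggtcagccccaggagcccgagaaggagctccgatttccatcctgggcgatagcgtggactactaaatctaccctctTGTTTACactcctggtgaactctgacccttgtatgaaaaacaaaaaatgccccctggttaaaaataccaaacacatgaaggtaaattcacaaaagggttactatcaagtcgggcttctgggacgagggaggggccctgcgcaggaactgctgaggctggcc
A match of letters describes the sequence and does not show that a FOXO factor binds there.

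Akt2, the isoform best known for glucose uptake, read 8.60, 8.06, 8.32 and 8.58 on the AβPP antisense arrays, 8.31, 8.56, 8.43 and 8.68 on the Random antisense arrays, 8.29, 8.30, 8.41 and 8.38 on the untreated SAMP8 arrays and 8.16, 7.99, 8.17 and 8.28 on the Control arrays. All untreated SAMP8 arrays lay above all Control arrays, by a narrow margin. SAMP8 minus Control was 0.19 (SE 0.13, 95% interval -0.08 to 0.47, adjusted p = 0.999) by limma, and a second probe set gave 0.08. On that second probe set, 1421324_a_at, the difference between AβPP antisense and Random antisense was -0.95 (SE 0.30, 95% interval -1.58 to -0.31, adjusted p = 0.244), where the brightest gave -0.11. The second probe set read 6.70, 5.32, 6.64 and 5.18 on the AβPP antisense arrays and 6.72, 7.24, 6.73 and 6.93 on the Random antisense arrays. The groups did not overlap, and its 2 low arrays were AβPP antisense 2 and 4.

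Foxo1, a FOXO factor held out of the nucleus by AKT, read 8.45, 8.07, 9.06 and 8.72 on the AβPP antisense arrays, 8.25, 8.12, 8.09 and 8.15 on the Random antisense arrays, 8.20, 8.14, 8.69 and 8.51 on the untreated SAMP8 arrays and 8.33, 8.44, 8.16 and 7.46 on the Control arrays. AβPP antisense 3 and 4 were its highest arrays and Control 4 its lowest. The difference from Random antisense was 0.42 (SE 0.23, 95% interval -0.06 to 0.91, adjusted p = 0.47) by limma, and 0.37 (adjusted p = 0.362) without AβPP antisense 4 and Control 4. Foxo4, a further member of the family, read 5.997, 6.320, 5.933 and 7.056 on the AβPP antisense arrays, 6.010, 5.991, 6.091 and 5.997 on the Random antisense arrays, 5.989, 5.993, 5.998 and 5.970 on the untreated SAMP8 arrays and 5.974, 6.001, 5.947 and 5.892 on the Control arrays. It was flat on all arrays but AβPP antisense 2 and 4. For Foxo4, AβPP antisense minus untreated SAMP8 was 0.34 (SE 0.18, 95% interval -0.05 to 0.73, adjusted p = 0.403), and 0.10 (adjusted p = 0.806) without AβPP antisense 4. Foxo3 and Pdpk1, the gene of PDK1, differed by 0.12 and 0.23 in AβPP antisense minus Random antisense and by -0.14 and -0.03 in SAMP8 minus Control. Pdpk1 was at 11.99 on AβPP antisense 1, its highest array.

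In the TSC, RHEB and mTOR group, Mtor, the kinase itself, read 10.17, 10.21, 10.11 and 10.57 on the AβPP antisense arrays, 10.13, 10.02, 10.07 and 10.05 on the Random antisense arrays, 10.11, 10.09, 10.06 and 9.99 on the untreated SAMP8 arrays and 10.18, 10.03, 10.14 and 9.74 on the Control arrays. The AβPP antisense values were all above the untreated SAMP8 values, 3 of the 4 by little. Mtor differed by 0.20 (SE 0.12, 95% interval -0.06 to 0.46, adjusted p = 0.454) from untreated SAMP8 by limma, and 0.10 (adjusted p = 0.809) without AβPP antisense 4. Rheb, the small GTPase that activates mTOR, read 12.72, 12.41, 12.68 and 12.01 on the AβPP antisense arrays, 12.46, 12.64, 12.58 and 12.51 on the Random antisense arrays, 12.67, 12.60, 12.75 and 12.57 on the untreated SAMP8 arrays and 12.68, 12.68, 12.62 and 12.44 on the Control arrays. AβPP antisense 4 was the lowest array, and no pair of groups separated in the 4 comparisons. Its largest difference was -0.20 (SE 0.14, 95% interval -0.49 to 0.10, adjusted p = 0.531), in AβPP antisense minus untreated SAMP8.

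Tsc2, the GTPase-activating protein that turns RHEB off, read 8.37, 8.54, 8.80 and 7.35 on the AβPP antisense arrays, 8.68, 8.77, 8.56 and 8.70 on the Random antisense arrays, 8.67, 8.80, 8.58 and 8.74 on the untreated SAMP8 arrays and 8.60, 8.55, 8.63 and 8.10 on the Control arrays. AβPP antisense 4 and Control 4 were lowest, and the other 14 arrays lay between 8.37 and 8.80. Against Random antisense Tsc2 differed by -0.42 (SE 0.24, 95% interval -0.92 to 0.09, adjusted p = 0.495) by limma, and -0.11 (adjusted p = 0.86) without AβPP antisense 4. Tsc1, the partner of Tsc2, Rptor, the scaffold of mTOR complex 1, Rictor, that of complex 2, and Mlst8, a subunit of both, differed by -0.16 to 0.18 in AβPP antisense minus Random antisense and by -0.04 to 0.10 in SAMP8 minus Control on their brightest probe sets.

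Of all 79 tested probe sets of the pathway genes, 0 were called in the 4 comparisons and 1 by the F test, where 0.849% of all probe sets were. It was 1453775_at of Rictor (adjusted p = 0.0433 in limma's F test), a dim probe set singled out after its values were seen. It read 2.89, 3.22, 4.80 and 2.59 on the AβPP antisense arrays, 5.07, 5.16, 4.53 and 5.28 on the Random antisense arrays, 4.66, 4.64, 5.01 and 5.55 on the untreated SAMP8 arrays and 5.83, 5.48, 5.06 and 5.99 on the Control arrays. On 3 AβPP antisense arrays it lay under every other array, below the filter level of 4, and AβPP antisense 3 lay within the Random antisense range. The difference was -1.63 (SE 0.39, 95% interval -2.47 to -0.80, adjusted p = 0.131) from Random antisense and -1.59 (SE 0.39, 95% interval -2.42 to -0.76, adjusted p = 0.103) from untreated SAMP8, and the group mean under the filter level makes the size uncertain. Without AβPP antisense 3 the first was -2.11 (adjusted p = 0.00106), and without AβPP antisense 4 it was -1.37 (adjusted p = 0.21). Leaving out AβPP antisense 3 is the setting that called 3.75% of all probe sets in this comparison. The 3 other tested probe sets of Rictor gave -0.03, 0.29 and 0.23.

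The translation outputs held the widest differences in either direction in both AβPP antisense comparisons. Eif4e, the cap-binding factor, read 11.26, 11.18, 11.62 and 9.39 on the AβPP antisense arrays, 11.45, 11.65, 11.65 and 11.46 on the Random antisense arrays, 11.84, 11.47, 11.80 and 11.74 on the untreated SAMP8 arrays and 11.89, 11.67, 11.70 and 11.81 on the Control arrays. AβPP antisense 4 was more than 1 unit below every other array, and AβPP antisense 1 and 2 were the next lowest. Eif4e differed from untreated SAMP8 by -0.85 (SE 0.34, 95% interval -1.57 to -0.13, adjusted p = 0.266) by limma, and the difference from Random antisense was -0.69 (SE 0.34, 95% interval -1.41 to 0.03, adjusted p = 0.428). Without AβPP antisense 4 these were -0.36 (adjusted p = 0.247) and -0.20 (adjusted p = 0.651), and with the beta-actin covariate -0.12 (adjusted p = 0.801) and -0.04 (adjusted p = 0.936). The other tested probe sets of Eif4e differed by 0.06 and 0.36 from Random antisense.

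Eif4ebp1, which encodes the inhibitor 4E-BP1 that mTOR switches off, read 6.21, 5.01, 4.70 and 6.97 on the AβPP antisense arrays, 4.84, 4.83, 4.86 and 4.99 on the Random antisense arrays, 5.07, 4.80, 4.64 and 4.81 on the untreated SAMP8 arrays and 4.90, 4.82, 4.75 and 8.20 on the Control arrays. Control 4 was highest by more than 1 unit, then AβPP antisense 4 and 1, and the other 13 arrays lay between 4.64 and 5.07. Eif4ebp1 differed by 0.84 (SE 0.65, 95% interval -0.54 to 2.22, adjusted p = 0.63) from Random antisense by limma and SAMP8 minus Control was -0.84 (SE 0.65, 95% interval -2.21 to 0.54, adjusted p = 0.999). Without AβPP antisense 4 and Control 4 they were 0.42 (adjusted p = 0.439) and 0.01 (adjusted p = 1). Eif4ebp2, the inhibitor most abundant in brain, was likewise highest on Control 4, at 8.25, and next on AβPP antisense 1, at 7.91. Rps6kb2, an S6 kinase, differed by -0.30 in AβPP antisense minus Random antisense, 0.28 in Random antisense minus untreated SAMP8 and 0.22 in SAMP8 minus Control, with adjusted p of at least 0.552. Without AβPP antisense 4 and Control 4 its difference between AβPP antisense and Random antisense was -0.11.

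**Figure D4:**
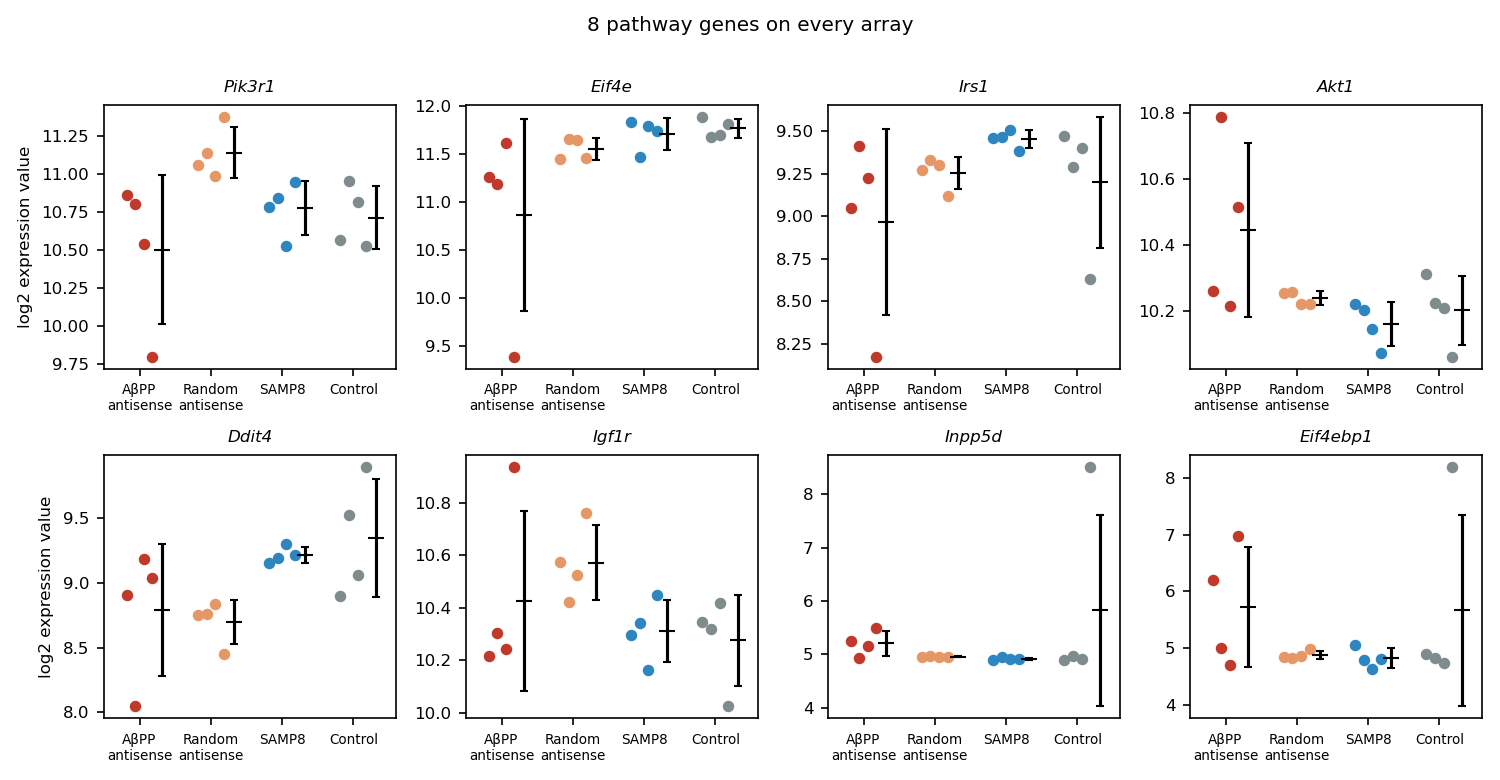
Log2 values of 8 genes on every array, 4 mice per group, with mean and SD as black bars and a separate axis per gene that does not start at 0. Pik3r1, Irs1, Akt1 and Ddit4 separate Random antisense from untreated SAMP8, Akt1 only by 10.2191 against 10.2189. The wide bars of Eif4e, Inpp5d and Eif4ebp1 come with 1 array each or, for Eif4ebp1 after AβPP antisense, 2.

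Among the inputs that restrain mTOR, Ddit4, a stress-induced activator of the TSC complex, read 8.90, 8.05, 9.18 and 9.03 on the AβPP antisense arrays, 8.76, 8.76, 8.83 and 8.45 on the Random antisense arrays, 9.15, 9.19, 9.30 and 9.22 on the untreated SAMP8 arrays and 8.90, 9.53, 9.06 and 9.90 on the Control arrays. No Random antisense value reached the lowest untreated SAMP8 value, and AβPP antisense 2 was the lowest of all. Random antisense minus untreated SAMP8 was -0.52 (SE 0.24, 95% interval -1.03 to -0.01, adjusted p = 1) by limma, with an unadjusted p of 0.0481. Ddit4 in AβPP antisense minus untreated SAMP8 was -0.42 (SE 0.24, 95% interval -0.93 to 0.09, adjusted p = 0.422), and -0.18 (adjusted p = 0.676) without AβPP antisense 2. The AMPK catalytic subunits Prkaa1 and Prkaa2 and Stk11, the gene of LKB1, differed by -0.43 to -0.12 in AβPP antisense minus Random antisense and by -0.08 to 0.23 in SAMP8 minus Control. AβPP antisense 4 was the lowest array for each of them. Without AβPP antisense 4 and Control 4 the difference from Random antisense was 0.08 for Prkaa1, -0.12 for Prkaa2 and -0.05 for Stk11. All Stk11 arrays of AβPP antisense lay below those of Random antisense, at 8.44 to 8.75 against 8.76 to 8.78.

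Random antisense against untreated SAMP8 had the most genes without overlap, and these differences were small. In 8 of 38 genes, 21.1%, the 4 arrays of one group all lay on one side of the 4 of the other, beside 8.1% of all tested probe sets. Pik3r1, Inppl1, Cbl, Akt1 and Igfbp4 were higher on every Random antisense array (background 3.91%), with differences of 0.08 to 0.37. Ddit4, Irs1 and Igf2r were lower (background 4.2%), with differences of -0.52 to -0.17. Some margins were very small. The lowest Random antisense and highest untreated SAMP8 values were 10.2191 and 10.2189 for Akt1, 9.564 and 9.560 for Cbl and 9.943 and 9.931 for Igfbp4. Ddit4 had a wider margin, with 8.83 as the highest Random antisense and 9.15 as the lowest untreated SAMP8 value. The low spread of these 2 groups, given above, stands beside the count of 8. Marker means of 2 cell or tissue types did not overlap between them either. For thalamus these were 8.09 to 8.55 after Random antisense and 8.59 to 8.85 in untreated SAMP8, though its marker Rorb was higher after Random antisense. For oligodendrocytes they were 11.92 to 12.00 and 12.02 to 12.22. The other marker lists overlapped, and the part of tissue content in the count was not tested. Genes without overlap numbered 3 of 38 in AβPP antisense minus Random antisense (background 7.58%), 1 of 38 in AβPP antisense minus untreated SAMP8 (background 7.96%) and 2 of 38 in SAMP8 minus Control (background 4.81%). In AβPP antisense minus Random antisense Pik3r1, Inppl1 and Stk11 were lower (background 3.71%) and 0 genes higher (background 3.87%). Mtor was higher in AβPP antisense minus untreated SAMP8 (background 3.55%) and 0 genes lower (background 4.41%). Akt2 was higher in SAMP8 minus Control (background 3.23%) and Cbl lower (background 1.59%). These comparisons share groups and are not independent of each other. With Random antisense 1 counted as untreated SAMP8, an alternative set up for these counts after the data were seen, Random antisense minus untreated SAMP8 had 7 genes without overlap, 18.4%, beside 5.22% of all probe sets. Only Igfbp4 was among both the 8 and the 7, so which genes separate these groups rests on the label of that array. The others of the 7 were Grb10, Pik3r2, Pik3r3, Akt2, Foxo3 and Prkaa2. The counts were then 4 (background 9.19%) in AβPP antisense minus Random antisense, the same 3 genes and Mtor, 0 (background 5.97%) in AβPP antisense minus untreated SAMP8 and 1 (background 3.56%), Akt2, in SAMP8 minus Control.

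A wider list of 74 further genes of the pathway, from ligands to mTOR regulators and outputs, had 66 with a probe set and 58 tested. The list was written with earlier results of these data known, so its counts are description only. In AβPP antisense minus Random antisense 0 of 58 were called by limma (background 0.0837%), with 9 at an unadjusted p under 0.05, 15.5%, beside 12.3% of all probe sets. In AβPP antisense minus untreated SAMP8 0 were called (background 0.289%) and 6 had such a p, 10.3%, beside 14.7% of all probe sets, and in Random antisense minus untreated SAMP8 0 were called (background 0%) and 1 had such a p, 1.72%, beside 1.12%. In SAMP8 minus Control 1 gene was called (background 0.36%), lower in SAMP8, and 2 had such a p, 3.45%, beside 4.38%.

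Deptor, an inhibitor bound to mTOR, read 7.35, 8.04, 7.23 and 6.41 on the AβPP antisense arrays, 8.59, 8.29, 8.55 and 8.40 on the Random antisense arrays, 8.45, 8.10, 8.09 and 8.61 on the untreated SAMP8 arrays and 8.20, 8.34, 8.20 and 7.81 on the Control arrays. The AβPP antisense values were under all those of Random antisense and untreated SAMP8. The difference was -1.20 (SE 0.26, 95% interval -1.74 to -0.65, adjusted p = 0.0974) from Random antisense by limma and -1.05 (SE 0.26, 95% interval -1.60 to -0.51, adjusted p = 0.103) from untreated SAMP8. Its side of the threshold depended on the arrays fitted. Without AβPP antisense 2 the adjusted p against Random antisense was 0.0125, without AβPP antisense 3 it was 0.0374, and without AβPP antisense 4 and Control 4 it was 0.0403. In that comparison these settings called 35, 895 and 199 of all probe sets, against 20 with all arrays. Against untreated SAMP8 the adjusted p of Deptor was 0.0214 without AβPP antisense 2, where 105 of all probe sets were called, against 69 with all arrays. Other probe sets of Deptor gave -0.75, -0.21 and 0.07 against Random antisense.

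Igfbp3, a further binding protein, averaged 7.23 ± 0.58 after AβPP antisense and 6.13 ± 0.41 after Random antisense (SD, n = 4 each). The difference was 1.09 (SE 0.27, 95% interval 0.51 to 1.68, adjusted p = 0.148) by limma, with overlapping arrays. Without AβPP antisense 2 the adjusted p was 0.0429, in a fit that called 35 of all probe sets, against 20 with all arrays. The other tested probe set of Igfbp3 gave 0.52 (SE 0.35, 95% interval -0.23 to 1.28, adjusted p = 0.581 in limma). Igf2, a growth factor gene that is strongly active in choroid plexus and meninges, averaged 7.74 ± 1.00 and 8.97 ± 0.22 in these groups, a difference of -1.23 (SE 0.39, 95% interval -2.06 to -0.40, adjusted p = 0.244), with an adjusted p of 0.0226 without AβPP antisense 3. Against untreated SAMP8 Igf2 differed by -1.16 (adjusted p = 0.197 in limma, and 0.0214 without AβPP antisense 3). Without AβPP antisense 3 the fit called 3.75% and 5.39% of all probe sets against Random antisense and untreated SAMP8. With all arrays these shares were 0.0837% and 0.289%. The mean over 10 choroid plexus markers was lower too, at 4.82 to 6.11 after AβPP antisense and 6.56 to 7.59 after Random antisense. The mean over 8 meningeal fibroblast markers overlapped, at 4.59 to 6.27 and 5.49 to 5.73. On AβPP antisense 1 to 4 the choroid plexus mean was 4.88, 4.82, 5.12 and 6.11, and Igf2 read 8.24, 7.25, 8.85 and 6.61. AβPP antisense 4 was also the array with the highest beta-actin 3′ minus 5′ value. The part of either tissue in the Igf2 difference was not tested. Inpp4a, a phosphatase acting on PI3K products, was the called gene. Inpp4a read 9.11, 8.89, 8.84 and 8.95 on the AβPP antisense arrays, 8.85, 8.88, 8.77 and 8.87 on the Random antisense arrays, 8.89, 8.90, 8.93 and 8.85 on the untreated SAMP8 arrays and 9.60 to 10.71 on the 4 Control arrays. The Control arrays were all above those of the other groups. SAMP8 minus Control was -1.36 (SE 0.19, 95% interval -1.78 to -0.94, adjusted p = 0.00328) in limma, lower in SAMP8. Its other tested probe set gave 0.11 (adjusted p = 0.999) there. On that probe set Inpp4a averaged 4.52 ± 1.01 after AβPP antisense, 5.94 ± 0.34 after Random antisense and 6.20 ± 0.09 in untreated SAMP8 (SD, n = 4 each). AβPP antisense differed by -1.42 (SE 0.36, 95% interval -2.18 to -0.66, adjusted p = 0.148 in limma) from Random antisense, with overlapping arrays, and by -1.68 (SE 0.36, 95% interval -2.44 to -0.92, adjusted p = 0.0682 in limma) from untreated SAMP8, with every array lower. Between Random antisense and untreated SAMP8 the difference was -0.26, with an adjusted p of 1. The call of Inpp4a in SAMP8 minus Control, made on its brightest probe set, had an adjusted p of 0.14 with only the 8 arrays compared in the fit, and the mean over its probe sets gave 0.77. Rps6, a ribosomal protein that S6 kinases phosphorylate, differed by 0.62 (SE 0.25, 95% interval 0.09 to 1.14, adjusted p = 0.959 in limma) in SAMP8 minus Control. The groups overlapped, at 6.51, 7.38, 6.48 and 7.63 in Control and 7.57 to 7.71 in untreated SAMP8. With array weights in limma, where Control 4 had a weight of 0.0925, the difference was 0.94 (adjusted p = 0.00173). That fit called 295 of all probe sets in this comparison, against 86 without weights. Lamtor2, a subunit of the Ragulator complex that brings mTOR to lysosomes, and Pik3ip1, an inhibitor of PI3K, had the smallest p in Random antisense minus untreated SAMP8, at -0.30 and -0.25, with adjusted p = 1 for both.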

How the data were processed

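Per the labels' protocols, total RNA was extracted from hippocampus of individual mice and 4 μg was labelled with biotin by the standard Affymetrix procedure. The authors deposited 1 table of log2 values made with GCRMA, per the submitters' processing notes; its version, and any genome build, are not given in the sources used here. GCRMA corrects background and forces similar distributions on all arrays, so a shift shared by most genes would not be visible. Gene names came from the platform annotation: of 45037 probe sets left after 64 controls, 34945 had 1 symbol, 932 several and 9160 none.

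The brightest single-symbol probe set stood for each gene. Of 101 probe sets of the pathway genes 79 were tested, with 26 genes having more than 1. Groups were compared in limma 3.58.1 (R 4.3.3) with 1 mean for each of the 4 groups, all 16 arrays in the fit, and empirical Bayes moderation (12 residual and 2.63 prior degrees of freedom). Benjamini-Hochberg adjustment ran over 23905 tested probe sets per comparison, with a threshold of 0.05. Exact permutation tests are two-sided over 70 assignments and cannot go below 0.0286. The number of arrays limits the precision.

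Per-array values were named for genes called anywhere, the 4 of smallest p in each comparison and a core of 10, which gave 20 genes; of the wider list, called genes and the 2 of smallest p were named. The pathway genes, the lists and the rule were chosen with earlier results of these data known. The fits were tested on simulated data. The labels give no batch. Promoters came from RefSeq on GRCm38.p6; no protein sequences were used here. Figures were drawn with matplotlib 3.10.9 in Python 3.11.15.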

Additional observations from a re-analysis of the deposited data

Results flagged for a closer look

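In the 80 groups of 4 arrays behind the genes named with per-array values, 9 arrays lay far from the other 3 of their group by Dixon's test, where chance alone marks about 1 group in 20. Control 4 accounted for 4 of them. Inpp5d was at 8.52 on that array, against 4.904 to 4.962 on the other Control arrays, Eif4ebp1 at 8.198 against 4.745 to 4.902, Cbl at 10.04 against 9.607 to 9.633, and Tsc2 at 8.102 against 8.555 to 8.63. AβPP antisense 4 accounted for 2, with Igf1r at 10.94 against 10.22 to 10.3 and Inppl1 at 7.375 against 7.65 to 7.69. Irs2 was at 6.043 on AβPP antisense 1, against 5.285 to 5.308 on the others of its group, and at 5.118 on Random antisense 2, against 5.296 to 5.31. Inpp5d was at 4.952 on SAMP8 2, against 4.902 to 4.905, all readings near the filter level of 4.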

How the results depend on the processing

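Each comparison was refitted under 28 alternatives: 16 that left out 1 array each, and 12 that changed the filter, the arrays in the fit, the group of Random antisense 1, the centring, the covariate, the weights, the moderation, the block or the probe sets. The count of called pathway genes was 0 in every one for the 4 comparisons. It ranged from 0 to 0 with 1 array left out. For the F test it was 1 where every tested probe set of every gene was counted, an alternative chosen after seeing the data, which called the dim Rictor probe set, and 0 in the other 27. On the probe sets that stand for the genes, the lowest adjusted p was 0.0685 with 1 array left out, in AβPP antisense minus untreated SAMP8. With every tested probe set it was 0.0433 in the F test, for Rictor. Under the remaining alternatives the lowest were 0.067 in the F test and 0.0728 for Ddit4 in Random antisense minus untreated SAMP8, both with array weights. The replicate number as a block gave 0 called genes in each comparison, with lowest adjusted p of 0.278, 0.235, 1 and 0.999 in the order of the report and 0.399 in the F test, and changed no call. Same-numbered arrays of different groups showed no clear shared deviation (r of -0.275 to 0.236, median 0.0366, over 24 pairs). For arrays of different number r was -0.277 to 0.323, median -0.00774, over 72 pairs. These values show no pairing by number but cannot exclude a weak one.

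With Random antisense 1 counted as untreated SAMP8, chosen after seeing the data for these counts, the genes without overlap were 7 instead of 8 in Random antisense minus untreated SAMP8, with 1 gene shared, 4 instead of 3 in AβPP antisense minus Random antisense, 0 instead of 1 in AβPP antisense minus untreated SAMP8 and 1 instead of 2 in SAMP8 minus Control.

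Counts over the whole table moved with the arrays fitted. With 1 array left out they were 11 to 895 in AβPP antisense minus Random antisense, 16 to 1286 in AβPP antisense minus untreated SAMP8, 0 in Random antisense minus untreated SAMP8, 54 to 115 in SAMP8 minus Control and 117 to 962 in the F test. The counts of 895, 1286 and 962 came without AβPP antisense 3, against 20, 69 and 203 with all arrays. Under the other alternatives they were 0 to 199, 5 to 407, 0 to 19, 23 to 295 and 70 to 564 in the same order. Of 2148 recomputed differences of the 20 genes, 91 changed sign and 0 passed the threshold. By more than 1 SD 23 moved, all with the beta-actin covariate or the mean over probe sets. None of the 23 came from leaving arrays out, although Inpp5d in SAMP8 minus Control went from -0.91 to -0.01 without AβPP antisense 4 and Control 4. A left-out array itself widens the spread that such a shift is held against. The count of 23 therefore does not measure how much single arrays matter. With the mean over probe sets, AβPP antisense minus Random antisense was -1.02 for Pik3r1, -0.53 for Akt2 and -0.16 for Akt1. With 4 arrays per group and a median SE of 0.20, changes well under a doubling lay within the error.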
